A study of Homo sapiens with 2 samples.

Results

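NF-kB is a family of transcription factors built as dimers of 5 subunits, and its activity is limited by inhibitors that it induces itself. The messenger RNAs of these genes were compared between U937 cells transduced with TWIST-1 and U937 cells transduced with empty vector. The members were the 5 subunit genes NFKB1, NFKB2, REL, RELA and RELB and the 5 inhibitor genes NFKBIA, NFKBIB, NFKBIE, NFKBIZ and TNFAIP3, chosen by name. The subunit genes lie on human chromosomes 4 (NFKB1), 10 (NFKB2), 2 (REL), 11 (RELA) and 19 (RELB), and the inhibitor genes on 14 (NFKBIA), 19 (NFKBIB), 6 (NFKBIE and TNFAIP3) and 3 (NFKBIZ). Each was read from the table entry annotated with that symbol alone, and these were 10 of the 22465 genes measured. All 10 had a single entry, so none of them has a second probe group to set beside the first. Among the 10 genes, TNFAIP3 and NFKBIZ were at least 1.2-fold lower with TWIST-1, and no subunit gene differed by that much.

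U937 is a human acute myeloid leukemia cell line with monocytic features. A pCDH1-based lentiviral system carried either the TWIST-1 cDNA or no insert, and both cell populations were otherwise the same line, grown under the same standard conditions. Total RNA of each was hybridised to 1 Affymetrix Human Transcriptome Array 2.0, which asked which transcripts differ when TWIST-1 is overexpressed. As each condition had 1 array, no test or replicate error could be had, and TWIST-1, culture and array effects cannot be told apart. Every log2 ratio given here was taken as TWIST-1 minus vector from the deposited log2 table, and 1.2-fold, the study's threshold, is a log2 ratio of 0.263. The study's calls also carried a P-value limit, which a single array per condition cannot give, so the fold alone was used here.

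In resting cells most NF-kB dimers are held in the cytoplasm by IkB proteins. Receptors for cytokines and microbial products activate the IkB kinase (IKK) complex, which marks IkB for destruction, and the freed dimers enter the nucleus and switch on genes of inflammation and survival. NFKBIA and TNFAIP3 are among the genes they switch on, so the pathway carries its own brake. In monocytes and macrophages this system drives cytokine and chemokine production. TWIST-1 is a basic helix-loop-helix protein that binds E-box sequences, and in the mouse the Twist proteins are induced by NF-kB and repress its cytokine targets.

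NF-kB dimers bind kappa-B elements, and promoter sequences are given here because the members with the lowest log2 ratios carried the same element as members that were higher with TWIST-1. Promoters came from RefSeq (GRCh38.p14) and run from 250 bases before to 50 after each annotated start. A promoter was found for 8 of the 10 genes, and RELB and NFKBIE are named only. The kappa-B consensus, searched on both strands with overlapping matches kept, lay in 7 of these 8 genes (all but RELA), against 7.09% of the 27305 genes with a promoter and 5.91% of the 35116 promoters. A looser pattern, GGGNNNNNCC, lay in 8 of 8 members and in 61.7% of genes, so it separates little. The E-box, CANNTG, lay in 4 of the 8 (NFKB1, NFKB2, RELA and TNFAIP3), against 73.1% of genes. A match is a description of letters and does not show that a factor binds there.

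The sequences below run 5′ to 3′ along each gene's strand, with every kappa-B consensus match in capitals. The 3 inhibitors with the lowest log2 ratios come first, with all 250 bases upstream of the start for NFKBIZ and NFKBIA, and a short window is shown for the others. TNFAIP3 lies at chr6:137867177-137867228 on the plus strand, inside the annotated gene, whose span begins at 137866349, NFKBIZ at chr3:101827740-101827989 on the plus strand and NFKBIA at chr14:35404750-35404999 on the minus strand. NFKBIB lies at chr19:38899926-38899966, NFKB1 at chr4:102501295-102501334, REL at chr2:60881512-60881552 and NFKB2 at chr10:102394456-102394524, all on the plus strand. The NFKBIB and NFKB2 windows also lie inside the annotated genes, whose spans begin at 38899666 and 102394110.
TNFAIP3: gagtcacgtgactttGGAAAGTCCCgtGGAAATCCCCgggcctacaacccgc
NFKBIZ: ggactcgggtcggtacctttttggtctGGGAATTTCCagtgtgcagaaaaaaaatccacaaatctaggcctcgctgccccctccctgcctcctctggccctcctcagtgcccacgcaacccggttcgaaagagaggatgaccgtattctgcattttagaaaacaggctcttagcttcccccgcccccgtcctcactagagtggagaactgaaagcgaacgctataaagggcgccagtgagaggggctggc
NFKBIA: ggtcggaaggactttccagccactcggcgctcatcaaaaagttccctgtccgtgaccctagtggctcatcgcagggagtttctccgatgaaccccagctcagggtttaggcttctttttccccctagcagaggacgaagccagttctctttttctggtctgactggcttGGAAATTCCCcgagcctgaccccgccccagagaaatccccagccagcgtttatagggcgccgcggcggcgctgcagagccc
NFKBIB: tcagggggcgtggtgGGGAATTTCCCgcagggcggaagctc
NFKB1: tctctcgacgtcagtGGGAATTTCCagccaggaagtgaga
REL: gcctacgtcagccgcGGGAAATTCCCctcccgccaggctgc
NFKB2: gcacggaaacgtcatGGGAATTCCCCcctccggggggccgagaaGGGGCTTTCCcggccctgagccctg

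The element stood close to the start in most of the promoters shown. TNFAIP3 had 2 matches, both on the minus strand, with their first bases at positions -67 and -55. The single match of NFKBIA was at -81 on the minus strand, and that of NFKB1 was at -49 from the first of its 2 annotated starts. The match of NFKBIZ in the window shown was farther away, at -223, and its second annotated start, not shown, had overlapping matches at -239. REL and NFKBIB each held a pair of overlapping matches on opposite strands, at -47 and -46 in REL and at -28 and -27 in NFKBIB. The NFKBIB pair was counted from the second of its 2 annotated starts. No match lay at the other start of NFKB1 or NFKBIB, or at the first start of NFKB2. In NFKB2 the matches shown lay at -107, -106 and -78 from the second of its 3 annotated starts, and the third, not shown, had matches at -176 and -21. The exact 10 bases GGGAATTTCC occurred in NFKBIZ, NFKBIA, NFKBIB, NFKB1 and REL, whereas 51 of the 35116 promoters (0.145%) held them. TNFAIP3 also had E-boxes at -78 and -27, on either side of its kappa-B matches.

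**Figure D1:**
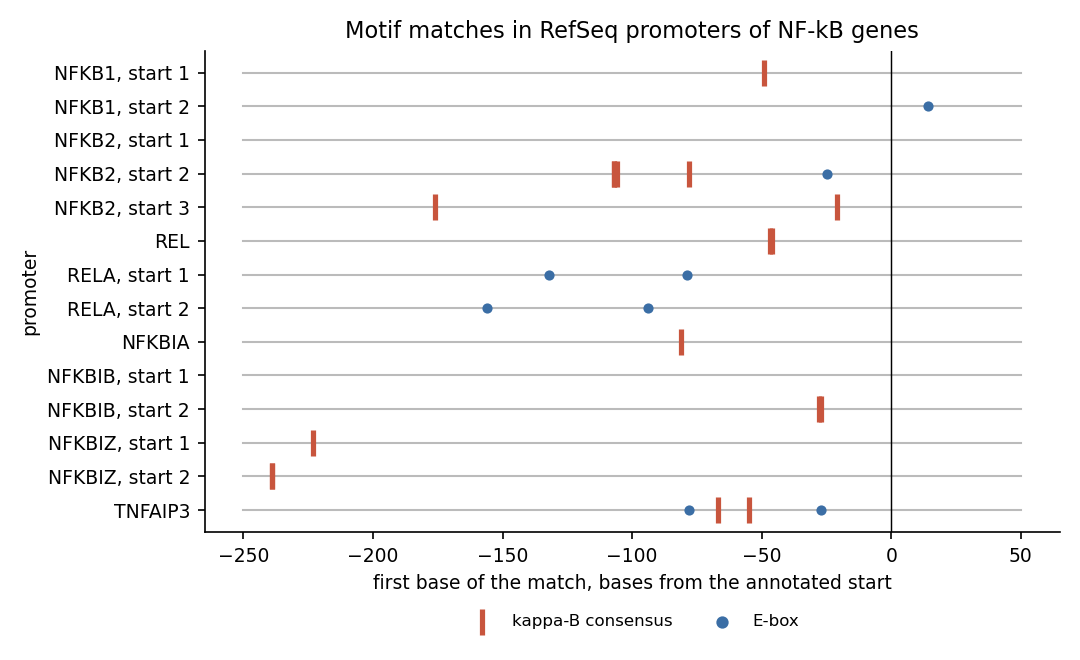
Positions of kappa-B consensus matches (red bars) and E-boxes (blue dots) in the RefSeq promoters of 8 NF-kB genes, in bases from the annotated start, 1 line per start. The kappa-B matches of TNFAIP3 sit at -67 and -55 between E-boxes at -78 and -27, and RELA has E-boxes but no kappa-B match.

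The consensus was also set beside the log2 ratios of the brighter genes, those with a mean value at or above the median of all genes. Among the brighter genes with a promoter, the median log2 ratio was 0.03 for the 768 with a match and 0.00 for the 7582 without. These sets were not matched for level or gene length, and the part of the element in the log2 ratios was not tested. TNFAIP3 and NFKBIZ, the lowest members, and NFKB2 and NFKBIB, which were higher, all carried the consensus.

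Before the members, the arrays themselves are described. The median log2 ratio was 0.042 over all genes and 0.0035 over the 11233 brighter genes, whose mean value was 5.19 or more. TWIST1 itself read 4.13 on the vector array and 4.34 on the TWIST-1 array, a log2 ratio of 0.21, short of 1.2-fold. No source used here says whether its probes read the transduced cDNA, so the targeted gene does not settle the label. Of 12 measured myelomonocytic marker genes 11 were among the brighter genes. Values of all 12 ran from 5.09 to 11.6 on the vector array and from 5.20 to 11.4 on the TWIST-1 array. Their summed linear level was 11232 on the vector array and 10344 on the TWIST-1 array. Within that list LYZ and PRTN3 had log2 ratios of -0.27 and -0.29, both short of 1.2-fold after loess and quantile normalization. Of the markers of other blood cells, 1 of 6 for T cells, 3 of 5 for B cells, 1 of 3 for erythroid cells and 4 of 5 for megakaryocytes were among the brighter genes, and so were 2 of 5 epithelial markers. On the vector array the highest value was 5.32 for T cell, 5.90 for B cell, 6.55 for erythroid, 5.53 for megakaryocyte and 6.02 for epithelial markers. The erythroid factor gene KLF1 and the platelet receptor gene GP9 were at least 1.2-fold higher, at 0.35 and 0.37. The summed linear level went from 124 to 153 for the erythroid and from 182 to 205 for the megakaryocyte markers, and the part of these shifts in the NF-kB values was not tested. GAPDH had a log2 ratio of -0.015 and ACTB of -0.09.

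TNFAIP3 encodes A20, a ubiquitin-editing enzyme that shuts down signalling upstream of IKK. The gene lies at chr6:137866349-137883312 (GRCh38.p14) and was read by cluster TC06001027.hg.1. Its value was 6.68 on the vector array and 6.37 on the TWIST-1 array, so the TWIST-1 array was the lower. The log2 ratio of -0.31 is 1.24-fold lower and was the 355th lowest of 22465. NFKBIZ encodes IkB-zeta, a nuclear IkB protein known less for holding dimers back than for helping p50 to activate a second wave of genes. The gene lies at chr3:101827990-101861022 (cluster TC03003320.hg.1). It read 5.20 on the vector array and 4.90 on the TWIST-1 array, a log2 ratio of -0.30 and 1.23-fold lower, the 383rd lowest. NFKBIZ was the 1 member whose mean over both arrays lay below the median level of all genes. These 2 members of 10 are to be read beside a background of 2.85% of all genes at least 1.2-fold lower and 2.71% at least 1.2-fold higher. For the brighter genes the shares were 4.23% lower and 1.66% higher. The members were chosen with earlier results of these data known.

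NFKBIA encodes IkB-alpha, the classical inhibitor, which NF-kB resynthesises within one cycle of activation. It read 7.83 on the vector array and 7.71 on the TWIST-1 array, and its log2 ratio of -0.12 is 1.09-fold lower. Thus the best-known feedback gene was on the same side of 0 as TNFAIP3 and NFKBIZ but well inside the threshold. NFKBIB encodes IkB-beta, which is resynthesised more slowly, and read 6.59 on the vector array and 6.72 on the TWIST-1 array, a log2 ratio of 0.13. NFKBIE encodes IkB-epsilon, an inhibitor that mostly holds RelA and c-Rel dimers. It read 6.71 and 6.74, a log2 ratio of 0.03, which is the smallest of the 10 in size and turned to -0.0084 when all ratios were centred on the median gene. The inhibitors therefore did not move as one set, as 3 had log2 ratios below 0 and 2 above.

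REL encodes c-Rel, the subunit best known from lymphoid and myeloid cells, and was the lowest of the subunits. It read 8.35 on the vector array and 8.10 on the TWIST-1 array, a log2 ratio of -0.25 and 1.19-fold lower, just outside the threshold that TNFAIP3 and NFKBIZ passed. NFKB1 encodes p105, which is processed to the DNA-binding subunit p50. It read 6.41 on the vector array and 6.26 on the TWIST-1 array, a log2 ratio of -0.15. RELA encodes p65, the main activating partner of p50, and read 7.21 and 7.26, a log2 ratio of 0.05 and 1.04-fold higher. In this pair of arrays RELA was thus the subunit gene with the smallest difference.

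RELB and NFKB2 encode the subunits of the alternative pathway, in which p100, the product of NFKB2, is processed to p52 and pairs with RelB. RELB read 5.89 on the vector array and 6.08 on the TWIST-1 array, a log2 ratio of 0.19 and 1.14-fold higher, the highest among the 10 genes. NFKB2 read 6.95 and 7.10, a log2 ratio of 0.14 and 1.10-fold higher. Both genes of the alternative pair were above 0, while NFKB1 and REL were below it. The log2 ratios of RELB and REL lay 0.44 apart. This grouping was made after the values were seen and was not tested.

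**Figure D2:**
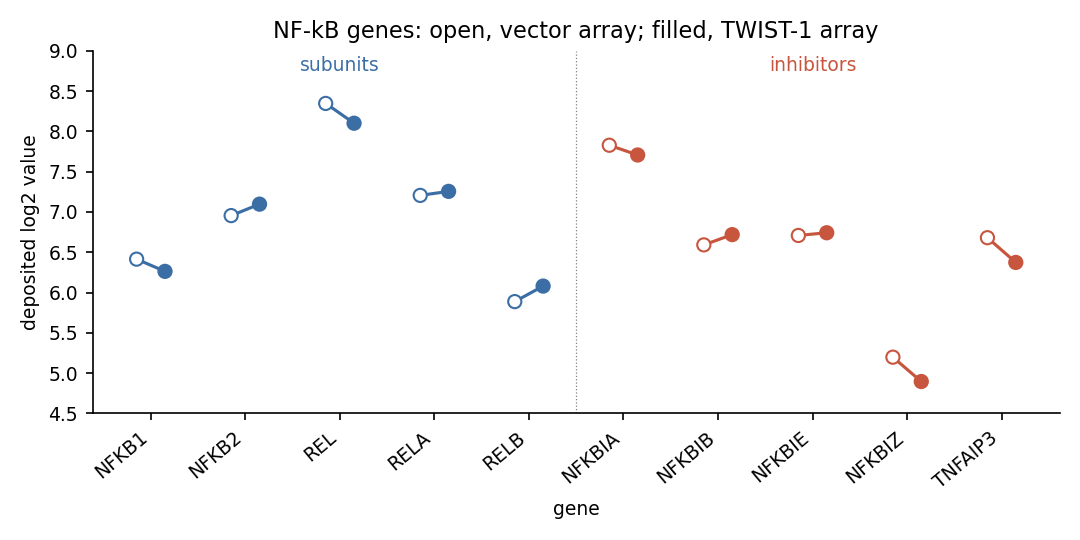
Deposited log2 value of each NF-kB gene on the vector array (open circle) and the TWIST-1 array (filled circle), subunits in blue and inhibitors in red, 1 array per condition. TNFAIP3 drops from 6.68 to 6.37 and NFKBIZ from 5.20 to 4.90, while RELB goes from 5.89 to 6.08.

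The subunits as a group had a median log2 ratio of 0.05, with a range from -0.25 to 0.19. The inhibitors had a median of -0.12, with a range from -0.31 to 0.13. The ranges overlap over most of their length, and the difference of the medians, inhibitors minus subunits, was -0.17. Without NFKBIB, which is less inducible than the other 4, the inhibitor median was -0.21 and the difference -0.26. Without NFKBIZ, the 1 member below the median level, the inhibitor median was -0.04 and the difference -0.09. The size of the difference thus turned on which inhibitor was left out. Of the 10 members 5 had log2 ratios below 0, against 34.8% of all genes and 46.5% of the brighter genes. For scale, the middle 90% of the brighter genes had log2 ratios from -0.25 to 0.19, so RELB and REL sat near its edges and TNFAIP3 lay beyond the lower one. A gene measured by several probe groups gives another yardstick, and over 479 such genes the SD of the log2 ratios within a gene was 0.0695. That SD covers the spread between probe groups on the same pair of arrays and not the spread between cultures.

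**Figure D3:**
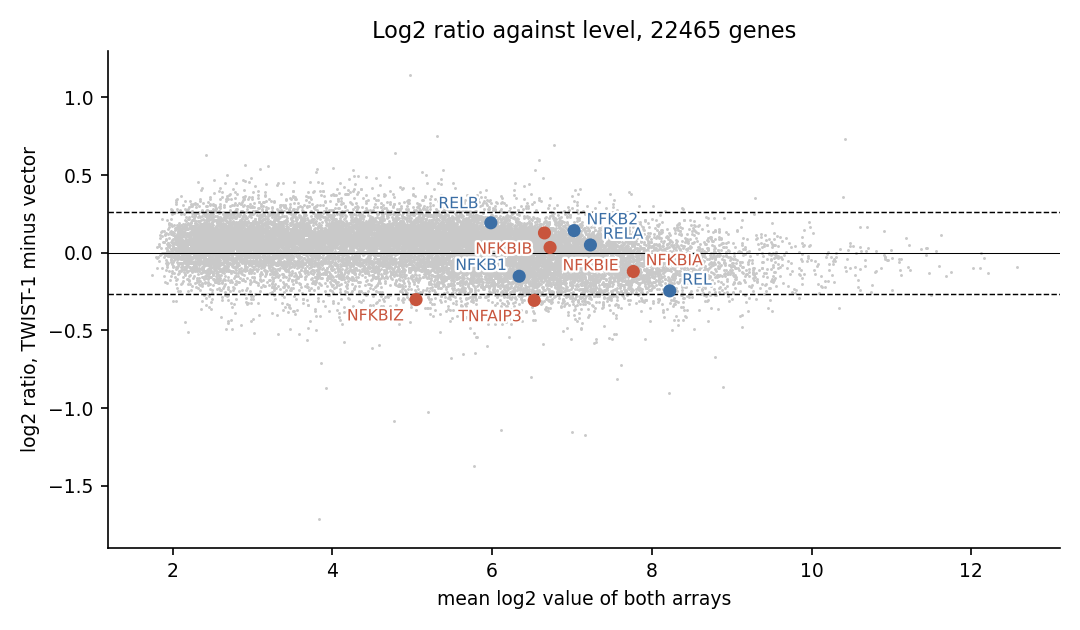
Log2 ratio (TWIST-1 minus vector) against mean log2 value for 22465 genes (grey), with subunits in blue, inhibitors in red and dashed lines at a 1.2-fold difference. TNFAIP3 and NFKBIZ lie under the lower line and the other 8 members lie between the lines.

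The direction of 9 members was the same as deposited after centring on the median gene, after loess and after another quantile normalization, NFKBIE when centred being the exception. TNFAIP3 had log2 ratios of -0.35, -0.32 and -0.31 under these scalings, and NFKBIZ had -0.34, -0.37 and -0.36. REL reached 1.2-fold when centred, at -0.29, but was at -0.20 after loess and quantile normalization. The background moved as well. The shares of all genes at least 1.2-fold lower and higher were 4.83% and 1.46% when centred, 3.68% and 1.48% after loess, and 3.36% and 1.59% after quantile normalization. An offset of 16 on linear values, which shrinks differences of dim genes, brought NFKBIZ to -0.20 and TNFAIP3 to -0.26, both short of the threshold.

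**Figure D4:**
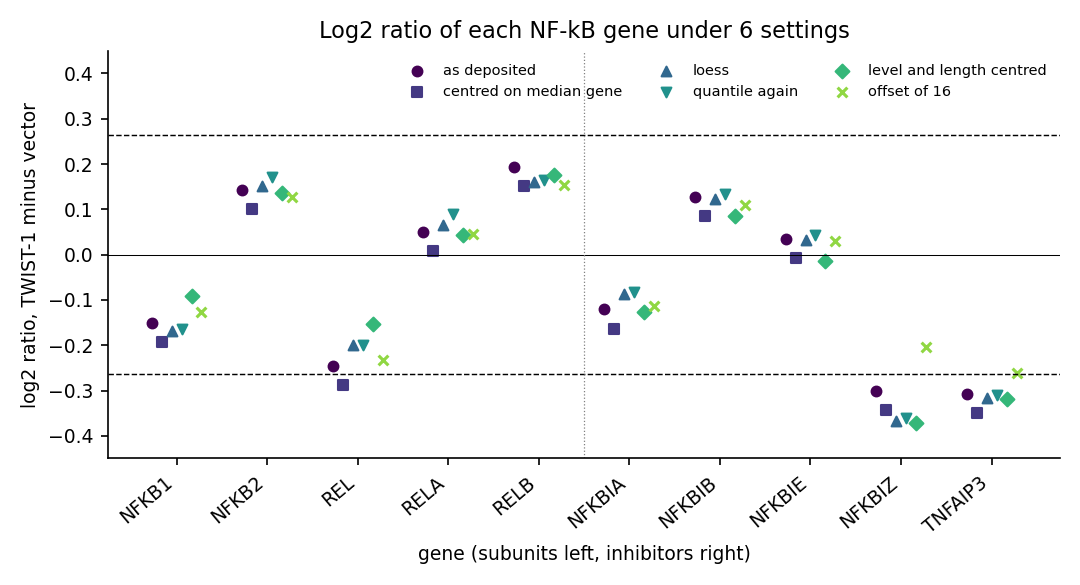
Log2 ratio of each NF-kB gene under 6 settings, with dashed lines at a 1.2-fold difference. TNFAIP3 runs from -0.35 to -0.26 and NFKBIZ from -0.37 to -0.20, and NFKBIE is the 1 gene with values on both sides of 0.

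The log2 ratio also moved with gene length. In 5 equal bins of brighter protein-coding genes, the median was 0.06 in the shortest genes and -0.06 in the longest. NFKB1 spans 115.9 kb and fell in the longest bin, and REL spans 50.04 kb in a bin with a median of -0.04. RELB spans 36.7 kb in the same bin as REL and had a log2 ratio of 0.19. TNFAIP3 spans 17.0 kb in a bin with a median of 0.04. That bin also held NFKB2, RELA and NFKBIB, with log2 ratios of 0.14, 0.05 and 0.13. NFKBIA and NFKBIE fell in the shortest bin, with log2 ratios of -0.12 and 0.03. NFKBIZ spans 33.0 kb and, being dimmer, was in none of these bins. After centring on genes of like level and length, the log2 ratio was -0.32 for TNFAIP3, -0.37 for NFKBIZ, -0.15 for REL and -0.09 for NFKB1. This centring changed level and length at once, and the part of length in these values was not tested.

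The rest of the pathway and the immediate early genes were described by 7 lists, of which 131 of 151 genes were measured. Of these, 19 (14.5%) were at least 1.2-fold lower and 1 was higher, beside 2.85% lower and 2.71% higher among all genes and 4.23% and 1.66% among the brighter ones. The immediate early list supplied 9 of the 19 lower genes and the 1 higher gene. The lists were not tested against other genes. Of 45 inducible NF-kB targets measured, 7 were at least 1.2-fold lower and none was higher, although the list's median was 0.03. Only 21 of these targets were among the brighter genes, with 5 lower and a median of 0.01. CXCL8, the neutrophil chemokine interleukin-8, read 5.31 on the vector array and 4.23 on the TWIST-1 array, a log2 ratio of -1.08. MMP9, a matrix metalloproteinase, read 7.58 and 7.02, a log2 ratio of -0.56. The cytokine genes IL1B and TNF had log2 ratios of -0.37 and -0.33, the chemokine gene CCL2 had -0.35, the urokinase receptor gene PLAUR had -0.36 and BCL2A1, a survival factor, had -0.28. CXCL8 and IL1B had means below the median level of all genes. With the offset of 16, CXCL8 was at -0.68, and IL1B at -0.19 and BCL2A1 at -0.23 fell short of the threshold. TNFAIP3 and NFKBIZ were thus near the values of TNF and BCL2A1 and far from that of CXCL8. The highest target, TNFAIP6, had 0.26, just short of the threshold, and was at 0.20 after quantile normalization.

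Immediate early genes, which stimulated cells transcribe without new protein synthesis, had 9 of 23 measured genes lower and 1 higher. Among all genes 2.85% were lower and 2.71% higher, and among the brighter ones 4.23% and 1.66%. The list's median was -0.05 over all 23 and -0.19 over the 20 brighter ones. FOSB, an AP-1 subunit, read 8.66 on the vector array and 7.76 on the TWIST-1 array, a log2 ratio of -0.90. FOS, another AP-1 subunit, read 7.96 and 7.15, a log2 ratio of -0.81. ZFP36, which encodes tristetraprolin, a protein that destroys cytokine messenger RNAs, had -0.72. The other 6 were DUSP1 at -0.49, KLF6 at -0.40, MCL1 at -0.38, NR4A2 at -0.30, and JUNB and PPP1R15A at -0.27, the last 2 falling short after loess and quantile normalization. With the offset NR4A2, JUNB and PPP1R15A were short, at -0.23, -0.25 and -0.25. ZFP36L1 was the higher one, at 0.28, and was short of the threshold in each of those scalings. None of the 18 immediate early genes with a promoter held the kappa-B consensus, and 15 of 37 NF-kB targets did, beside 7.09% of the 27305 genes with a promoter. The 15 targets with it had a median log2 ratio of 0.03 and the others 0.04.

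Upstream of the members, of 11 IKK and activating kinase genes, 2 were at least 1.2-fold lower, with a list median of -0.02. Among all genes 2.85% were at least 1.2-fold lower, and among the brighter ones 4.23%. TBK1, an IKK-related kinase of antiviral signalling, read 5.92 on the vector array and 5.53 on the TWIST-1 array, a log2 ratio of -0.39. CHUK, which encodes IKK-alpha, the kinase that acts on p100, read 4.97 and 4.67, a log2 ratio of -0.30, and its mean lay below the median level. With the offset it was at -0.19, short of the threshold, and TBK1 was at -0.30. IKBKB and IKBKG, for the catalytic IKK-beta and the scaffold NEMO, had log2 ratios of 0.06 and 0.08, and MAP3K14, for the kinase NIK that starts the alternative pathway, also had 0.06. Of 16 receptor-proximal adaptors and ubiquitin ligases, 1 was lower, TRAF6 at -0.27 (-0.22 with the offset, short of the threshold), the ligase downstream of interleukin-1 and Toll-like receptors, and IRAK2 was the highest at 0.17.

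The remaining lists had no gene past 1.2-fold in either direction. The 5 genes of IkB destruction had a median of -0.08 (-0.0003 after level and length centring), with FBXW11 at -0.13 and CDC34 at 0.22. The 24 other inhibitors and regulators had a median of 0.03, from -0.23 in ITCH to 0.16 in PDLIM2. The 7 cofactors of NF-kB had a median of -0.03, with SIRT1 at -0.19 and RPS3 at 0.08. These medians lie beside 0.042 for all genes, and the medians of the regulators, cofactors and targets changed sign under other scalings. As deposited, TNFAIP3 and NFKBIZ were thus the only ones of the 5 inhibitors and 24 regulators at least 1.2-fold lower, with ITCH passing the threshold when centred, at -0.27.

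**Figure D5:**
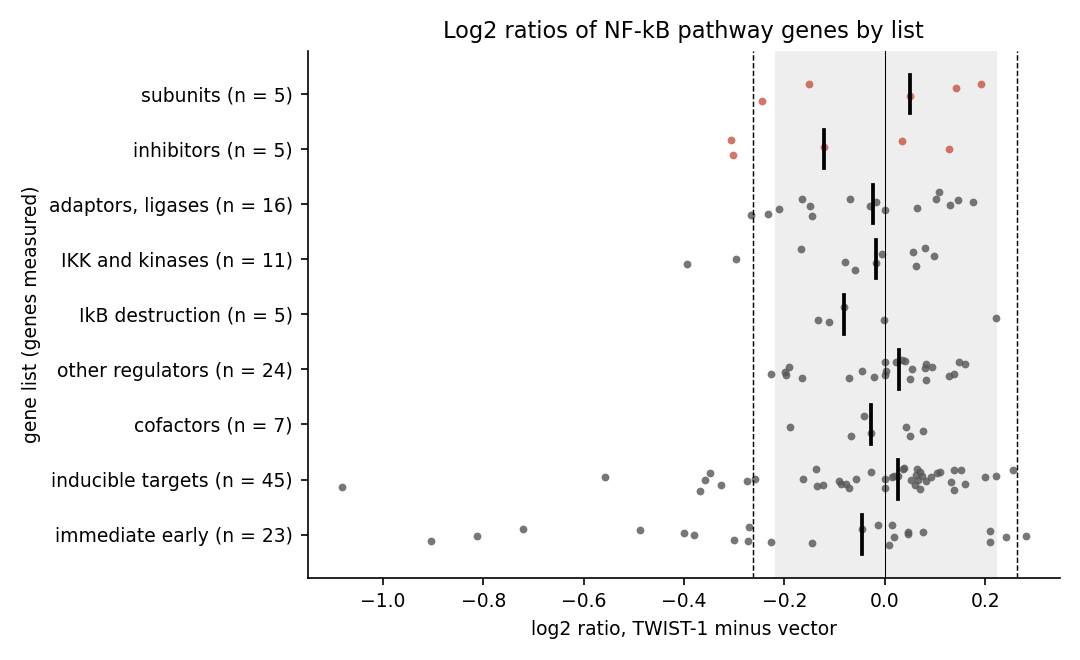
Log2 ratios of subunits, inhibitors (red) and the other lists (grey), 1 dot per gene. List medians are black bars, the middle 90% of all genes is shaded and dashed lines mark a 1.2-fold difference. The inhibitor median is -0.12 and the subunit median 0.05, and the lowest dots, CXCL8 at -1.08 and FOSB at -0.90, belong to the targets and the immediate early genes.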

How the data were processed

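Total RNA of both U937 populations, vector and TWIST-1, was hybridised to 1 array each. The authors deposited log2 values per transcript cluster, quantile-normalised as their methods state. Affymetrix Expression Console is named in the submitters' processing notes, while the summarisation and the correction for background are not given there. Of 67528 clusters, 23781 entries carried a single symbol; the 1543 with several named no gene. The brightest cluster represented a gene, giving 22465 genes. For 21497 entries the symbol was taken from a match in RefSeq GRCh38.p14, whether or not it changed. Values were used as deposited.

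With 1 array per group no test was run. Genes were named if they were members, at least 1.2-fold different members of a pathway list, the highest and lowest of a list without such genes, or TWIST1, GAPDH and ACTB. IKBKB, IKBKG, MAP3K14, IRAK2 and TNFAIP6 were named after their values were seen. Members and lists were chosen with earlier results of these data known. Alternatives were centring, loess, quantile normalization, an offset of 16, cluster means, a level filter and a 1.5-fold threshold. Planned protein comparisons were not run. Precision is limited by the number of arrays. The procedure was run on simulated data with shifts larger than any member's log2 ratio, so that run does not bear on calls of this size. R 4.3.3 with limma 3.58.1 and Python 3.11.15 with numpy 2.4.6, pandas 2.3.3 and matplotlib 3.10.9 were used.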

Additional observations from a re-analysis of the deposited data

How the results depend on the processing

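Of the 10 NF-kB genes, the number at least 1.2-fold lower was 2 as deposited, after loess, after quantile normalization and after centring on level and length, and 3 when centred on the median gene, REL being the addition at -0.29. With an offset of 16 it was 0, NFKBIZ being at -0.20 and TNFAIP3 at -0.26, and at a 1.5-fold threshold it was also 0. None was at least 1.2-fold higher in any setting. At or above the median level, which leaves out NFKBIZ, 1 member was lower, the inhibitor median was -0.044 and the difference -0.094. This restriction and the centring on level and length were chosen after seeing the data. Without NFKBIB the inhibitor median was -0.21 and its difference from the subunits -0.26. NFKBIE was at -0.0084 when centred and at -0.014 after level and length centring. Among the genes of the 7 other lists, immediate early genes included, the number lower was 12 with the offset. The number higher was 0 when centred, after loess, after quantile normalization, with the mean of clusters, with the offset and after level and length centring. The median of the other regulators turned to -0.014 when centred and to -0.0004 after level and length centring. That of the cofactors turned to 0.0089 after loess, 0.012 after quantile normalization and 0.045 after level and length centring. That of the targets turned to -0.016, -0.028, -0.025 and -0.043 when centred, after loess, after quantile normalization and after level and length centring. The immediate early median was -0.19 over its brighter genes. The causes were not tested. No paired analysis was possible because each condition had 1 array. The spread between cultures is unknown, and none of the differences given here, in subunits, inhibitors or other genes, can be told apart from it.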
